A study of Brassica oleracea with 15 samples.

Results

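A set of 179 probe sets had a lower mean signal in both flanks of gravity-stimulated Brassica oleracea hypocotyls than in all other flank groups of the study. The members were chosen from these measurements out of the 22746 probe sets that are not Affymetrix controls. The mean log2 signal over the 15 arrays had to be at or above 8.28. The higher of the bottom and top group means had to lie at least 0.4 log2 units below the lowest of the shaded, lit and control means. The distance between those means is called the gap here. AT3G23940 and the organelle genes rpl14 and rpl16 met the same limits and were left out by name. Any expansin or xyloglucan endotransglucosylase/hydrolase gene listed by its symbol would have been left out too. The screen used symbols and locus names alone, and probe sets not listed in the array's annotation could not be screened. The members may therefore still include such genes. The members made up 1.57% of the 11371 probe sets bright enough to be tested. Of the 179, 99 carried the symbol of 1 gene, 3 matched several genes and 77 were not listed in the array's annotation and are unnamed here.

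All samples were outer flank sections, about 1 cm long and without the vasculature, cut from hypocotyls of wild-type seedlings that were 3 days old and grown in the dark, with about 100 seedlings pooled per sample. The groups, of 3 arrays each, were the bottom and top flanks after 2 h of gravity stimulation, the shaded and lit flanks after 2 h of blue light from one side, and control flanks after a mock stimulation. The series' design text describes the triplicates as biological samples. The cRNA was hybridised to Arabidopsis probes, so gene names and roles below are those of the Arabidopsis genes, and levels of different genes were not compared.

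A seedling stem placed on its side senses gravity through starch-filled plastids that settle in the endodermis. Auxin then accumulates along the lower side, where cells elongate more, and the stem bends upward. Genes of that bending response may differ between the flanks. The members described here have another pattern, a low level on both sides of the stem. Those with a known role include genes of translation, sugar metabolism, the cell wall, the mitochondrion and the plastid. Whether the members share a pathway or take part in the bending was not tested.

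All arrays were scaled to 500 (trimmed mean of the signal). The median log2 signal ran from 8.375 to 8.467 on the gravity arrays and from 8.395 to 8.484 on the other 9. On the log2 scale, 3 prime minus 5 prime control probes, which reports how complete the labelled transcripts are, gave -0.17 ± 0.11 (SD, n = 6) on the gravity arrays and -0.19 ± 0.27 (n = 9) on the others (two-sided exact permutation p = 0.904). The others were themselves unlike, at -0.31 ± 0.15 under blue light (n = 6) and 0.06 ± 0.30 in the control (n = 3), where replicate 1 had 0.396. The part of this measure in the differences below was not tested. Of 30 marker genes for vascular, epidermal, ground, cotyledon and storage tissue only RCA, the Rubisco activase gene of green tissue, was named on the array, so the labelled tissue was not checked against its markers. RCA signals were 808.9 to 1454.6 on the gravity arrays, 1691.1 to 2544.7 under blue light and 761.8 to 1315.2 in the control, so the gravity and control ranges overlapped. In these bulk samples fewer cells of a type and less RNA per cell cannot be told apart. The labels give no dates, so stimulation and any batch of plants or hybridisations cannot be told apart.

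The gap ran from 0.40 to 1.299 log2 units over the 179 members, with a median of 0.55. It was at least 1 in 13 members and under 0.5 in 68. Averaged over groups, the members' signal was 1.41- to 3.39-fold lower in the gravity flanks than in the other 3 groups, with a median of 1.84-fold. These values chose the members and are given as a description, with no test. Just inside the limit lay AT3G08890, SGT1A and AT4G30500, with gaps of 0.401 each. Just outside lay AT3G51510, AT5G54970 and AT4G29750, with gaps of 0.399, 0.396 and 0.395.

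The mean log2 signal over all members, after subtracting each probe set's mean over 15 arrays, was -0.42, -0.72 and -0.57 in the bottom flank arrays and -0.46, -0.53 and -0.58 in the top flank arrays. It was 0.42, 0.27 and 0.37 in the shaded, 0.37, 0.37 and 0.36 in the lit and 0.32, 0.39 and 0.43 in the control arrays. Bottom flank replicate 2 was the lowest array and shaded flank replicate 2 the lowest outside the gravity groups. Since the rule fixed this order, the plot of mean level by array shows only how evenly the arrays of a group took part.

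**Figure D1:**
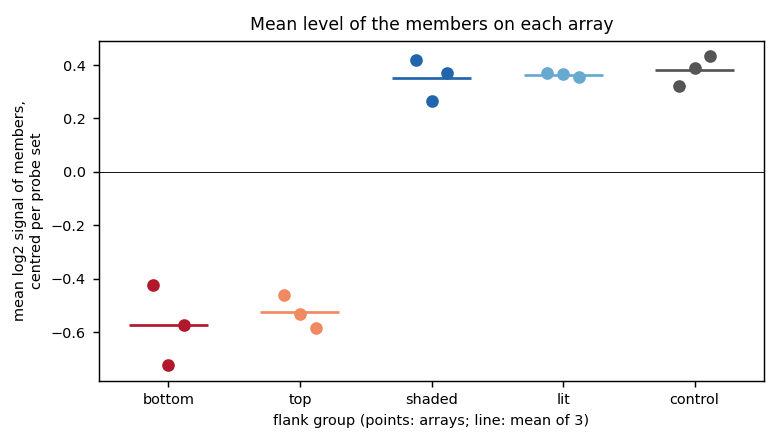
Mean log2 signal of the 179 members on each array, centred per probe set over the 15 arrays, by flank group, with a line at the mean of the 3 arrays. The gravity arrays lie between -0.72 and -0.42 and the other 9 between 0.27 and 0.43, a separation that the choice of members fixes.

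Of the 179 members, 24 had all 6 gravity arrays below all 9 other arrays, against 34 (0.299%) of all 11371 tested probe sets. The rule used the same contrast, so nothing is read from that share or from the counts of separated members given below. The other 155 members overlapped in at least 1 array. Of the 24, 8 carried the symbol of 1 gene, namely AT4G30010, AT3G03960, AT2G42490, AT1G04910, AT3G43320, AT5G19440, AT1G76590 and AT1G18340.

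AT4G30010 had the widest gap of all named members, 1.14 log2 units. Its signals were 639.3, 558.9 and 172.7 in bottom flanks and 402.5, 379.4 and 583.3 in top flanks. They were 1235.4, 1014.6 and 1130.1 in the shaded flank, 1288.0, 769.5 and 955.7 in the lit flank and 1112.2, 964.9 and 1039.9 in the control. The gravity arrays were all lower, and bottom flank replicate 3 stood far below the other 5.

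AT2G42490, of the copper amine oxidases that oxidise polyamines and other amines, had signals of 840.6, 640.0 and 849.3 in bottom flanks and 738.9, 991.6 and 948.1 in top flanks. The corresponding signals were 1257.1, 1575.7 and 2468.8 in shaded flanks, 1275.0, 1627.0 and 1534.6 in lit flanks and 1702.1, 2288.4 and 1884.6 in controls. Its gravity signals were 2.05-fold lower on average and closely grouped, and its gap was 0.73.

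AT3G03960 encodes the theta subunit of the CCT chaperonin, which folds actin and tubulin. It had signals of 831.2, 475.7 and 902.3 in bottom flanks and 267.5, 149.5 and 870.3 in top flanks. Under blue light it had 1485.8, 929.9 and 1814.3 in shaded and 992.5, 1245.8 and 1464.9 in lit flanks, and controls had 1570.6, 1484.3 and 1425.0. The groups were divided only narrowly, at 902.3 against 929.9, although the average difference was 2.81-fold.

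AT1G04910, an O-fucosyltransferase family gene, had 266.6 to 506.6 in the gravity flanks, 515.7 to 981.2 under blue light and 583.4 to 746.6 in the control. AT1G76590, a PLATZ-family zinc finger gene, had 488.2 to 627.6 in the gravity flanks, 732.6 to 1135.8 under blue light and 812.9 to 854.3 in the control. AT1G18340, which encodes a TFIIH subunit used in transcription and DNA repair, had 374.2 to 557.9, 590.3 to 826.1 and 598.4 to 692.3 in the same order. Replicates of AT1G76590 lay close together, with SDs of 68.8 in bottom flanks, 44.8 in top flanks and 20.9 in controls. AT3G43320 and AT5G19440 were divided by 789.7 against 804.3 and by 1106.0 against 1144.1.

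**Figure D2:**
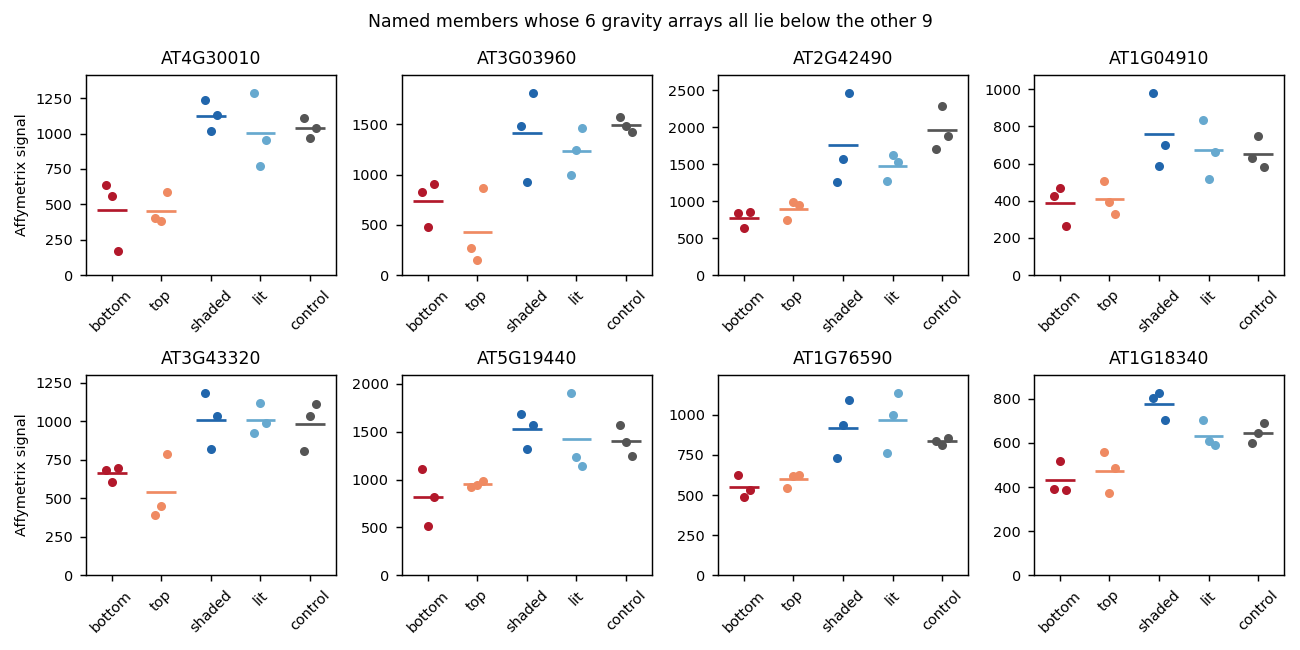
Affymetrix signal (linear, axis from 0) of the 8 named members whose gravity arrays all lie below the other 9, by flank group, with points for arrays and a line at the mean of 3. The division is wide for AT2G42490 (at most 991.6 against at least 1257.1) and narrow for AT1G04910 (506.6 against 515.7).

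The other 13 of the 14 named members of widest gap all overlapped between the gravity and the other arrays. AT2G03690, of the COQ4 family needed to make ubiquinone, had 151.5, 222.6 and 202.8 in bottom flanks and 501.7, 146.5 and 222.2 in top flanks. Its level was 1647.3, 844.6 and 516.4 in shaded flanks, 228.2, 851.6 and 734.8 in lit flanks and 157.7, 960.3 and 1561.9 in controls. Its average difference, 3.01-fold, was large, while lit replicate 1 and control replicate 1 were as low as the gravity arrays.

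AT3G18430, an EF-hand calcium-binding gene, had 470.0, 310.5 and 533.1 in bottom flanks and 398.7, 315.2 and 723.2 in top flanks. Shaded flanks had 885.6, 548.4 and 1245.9, lit flanks 612.7, 1293.1 and 864.0 and controls 940.1, 1128.2 and 1024.0. Its only array out of order was top flank replicate 3, which lay above shaded replicate 2 and lit replicate 1.

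PGL34, a plastoglobulin of the lipid droplets inside plastids, had 399.0, 259.3 and 408.7 in bottom flanks and 292.1, 591.5 and 325.7 in top flanks. The corresponding signals were 807.9, 522.5 and 744.2 in shaded flanks, 480.3, 769.0 and 845.6 in lit flanks and 769.0, 949.3 and 759.4 in controls. Top flank replicate 2 lay above 2 of the blue light arrays, and the other 5 gravity arrays lay below all 9.

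SBE2.2, a starch-branching enzyme, had 364.6, 265.6 and 108.4 in bottom flanks and 252.1, 606.3 and 95.3 in top flanks. Under blue light it had 239.3, 552.0 and 738.8 in shaded and 313.5, 634.5 and 626.9 in lit flanks, and controls had 327.4, 505.0 and 706.8. Top flank replicate 2 lay among the other groups, and replicate 1 of each of those groups lay low.

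AT2G47250, a DEAH-box RNA helicase related to splicing factors, had 713.1, 111.2 and 425.9 in bottom flanks and 463.5, 146.8 and 204.3 in top flanks. Its level was 705.3, 569.0 and 548.4 in shaded flanks, 563.1, 599.3 and 685.3 in lit flanks and 620.6, 892.8 and 697.4 in controls. Bottom flank replicate 1 was as high as the other groups.

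AT3G22980, related to the elongation factor-like GTPase that matures the large ribosomal subunit, had 466.8, 44.8 and 342.2 in bottom flanks and 268.2, 364.6 and 190.5 in top flanks. Shaded flanks had 638.8, 816.7 and 389.2, lit flanks 508.6, 534.0 and 640.1 and controls 428.2, 342.8 and 722.2. AT3G18760, of the ribosomal protein S6 family, had 152.3, 531.0 and 107.1 in bottom flanks and 236.0, 240.7 and 145.4 in top flanks. In it the shaded flank gave 497.6, 209.3 and 589.0, the lit flank 363.6, 464.6 and 699.7 and the control 453.2, 586.0 and 377.5. In each of these genes a gravity array stood far from the rest of its group, low in AT3G22980 and high in AT3G18760.

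AT2G38580 had 453.6, 66.5 and 338.6 in bottom flanks and 44.5, 470.7 and 197.5 in top flanks, with 369.6, 452.9 and 496.1 in the shaded, 541.1, 341.2 and 493.3 in the lit and 426.4, 390.5 and 507.3 in the control arrays. AT2G27090 had 386.5, 71.7 and 453.9 in bottom flanks and 116.9, 93.5 and 767.6 in top flanks, with 678.2, 413.8 and 416.0 in the shaded, 409.5, 360.3 and 683.2 in the lit and 564.6, 364.2 and 710.0 in the control arrays. Gravity arrays above the lowest of the other groups numbered 2 in AT2G38580 and 3 in AT2G27090, where top flank replicate 3 was the highest array of all.

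AT3G11745 had 86.4, 313.4 and 390.3 in bottom flanks and 281.2, 350.9 and 54.9 in top flanks, with 417.6, 372.9 and 520.4 in the shaded, 534.0, 440.9 and 416.5 in the lit and 277.7, 666.2 and 469.1 in the control arrays. AT2G07700 had 234.8, 301.6 and 117.6 in bottom flanks and 412.1, 158.2 and 157.6 in top flanks, with 402.0, 495.1 and 490.4 in the shaded, 408.1, 615.4 and 414.5 in the lit and 575.7, 397.6 and 328.6 in the control arrays. AT2G07700 had 1 gravity array, top flank replicate 1, among the other groups, and the control replicate 1 of AT3G11745 lay among the gravity arrays.

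AT3G09580, of an FAD/NAD(P)-binding oxidoreductase family, had 609.3, 162.2 and 86.4 in bottom flanks and 538.6, 285.8 and 45.7 in top flanks, with 321.2, 485.3 and 693.1 in the shaded, 578.4, 515.2 and 191.3 in the lit and 690.2, 369.9 and 535.8 in the control arrays. AT2G44870 had 382.9, 121.9 and 657.5 in bottom flanks and 201.3, 484.2 and 222.7 in top flanks, with 533.1, 826.1 and 438.6 in the shaded, 827.5, 863.3 and 222.3 in the lit and 626.2, 798.1 and 725.1 in the control arrays. Replicate 1 of both gravity flanks was high in AT3G09580, and lit replicate 3 of both genes was low.

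Of the named members, 45 were placed by their known role, a grouping made after the values were seen and used only to order the text. Translation and ribosome assembly held 12. AT3G02080, ribosomal protein S19 of the small cytosolic subunit, had means of 1758 ± 181 in bottom flanks and 1899 ± 689 in top flanks, 2819 ± 734 in shaded flanks, 2642 ± 674 in lit flanks and 3659 ± 360 in the control (SD, n = 3). AT5G52650, ribosomal protein S10, had 797.6 ± 248 and 1020 ± 602 in the bottom and top flanks, 1280 ± 524 and 1584 ± 504 in the shaded and lit flanks and 1608 ± 237 in the control. Both had their highest mean in the control, for AT5G52650 within the spread of the lit flank, and overlapped between gravity and blue light arrays.

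AT4G22380, an L7Ae-family protein related to a small ribonucleoprotein core protein, had 305.1 to 599.2 in the gravity flanks against 520.1 to 1300.7 in the other 9 arrays. The acidic ribosomal protein gene AT2G27720 had means of 271.1 and 275.2 in the bottom and top flanks, 457.7 and 362.1 in the shaded and lit flanks and 595.9 in the control. AT3G54210, ribosomal protein L17 of the plastid, had 219.5 and 259.7 in the bottom and top flanks, 595.4 and 630.1 in the shaded and lit flanks and 373.2 in the control. AT2G27720 was thus highest in the control and AT3G54210 under blue light, although both met the rule. The nucleolar rRNA-processing gene YAO was 1.54-fold lower in the gravity flanks on average. The whole group ranged from 1.503- to 2.38-fold, and 0 of its 12 members had separated arrays.

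Sugar metabolism and the cell wall held 9 members. TPI, the triosephosphate isomerase of glycolysis, had 24418.0, 22239.4 and 27252.1 in bottom flanks and 22350.9, 30697.4 and 24549.6 in top flanks. The corresponding signals were 30399.7, 34589.4 and 40866.7 in shaded flanks, 35072.2, 34268.3 and 38930.0 in lit flanks and 36105.4, 41444.5 and 37556.7 in controls. A small overlap, of top flank replicate 2 with shaded replicate 1, was the only one in this very bright probe set, at an average difference of 1.45-fold.

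USP, which makes UDP-sugars for wall and storage polysaccharides, had means of 362.2 and 392.6 in the bottom and top flanks, 528.5 and 597.0 in the shaded and lit flanks and 561.1 in the control. GH9B8, an endo-glucanase family gene, had 348.3 and 324.8, 547.7 and 586.5, and 516.3 in the same order. Besides AT1G04910, the O-fucosyltransferase family genes AT3G07900 and AT4G24530 were members, 1.71- and 1.99-fold lower. The group further held AT4G15750, of the invertase and pectin methylesterase inhibitors, and AT2G31110, of the TBL wall-acetylation family, 1.58- and 1.44-fold lower. A second, brighter probe set of AT2G31110 (mean log2 signal 10.88) had the opposite sign, with a log2 difference of 0.42.

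For the mitochondrion, AT3G06310 and AT2G33220, subunits of respiratory complex I, were 1.70- and 1.84-fold lower on average, beside the ubiquinone gene AT2G03690. For the plastid, ty2, a thioredoxin, and AT1G68660, a ClpS adaptor of the Clp protease, were 2.18- and 1.77-fold lower, beside PGL34. None of these 6 had separated arrays.

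Of the genes for protein folding and turnover, the RING-type ubiquitin ligase RHF1A had 279.0 to 435.1 in the gravity flanks against 432.6 to 802.6 in the other 9 arrays. The co-chaperone SGT1A and the carboxypeptidase scpl20 were 1.59- and 1.64-fold lower on average. RHF1A missed separation by 1 array, bottom flank replicate 1.

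The 3 members that matched several genes are not named. The histone genes HIS1-3, a linker histone, and AT1G08170, an H2B-type histone, were 1.49- and 1.90-fold lower, and the PWWP-domain gene AT5G27650 1.46-fold. For membrane traffic, the reticulon AT2G15280, the SNARE-associated family gene AT4G09580 and the adaptin-binding family gene AT3G58600 were 1.92-, 2.02- and 1.43-fold lower. The histone, PWWP and traffic genes all overlapped between gravity and other arrays.

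Among other enzymes and transporters, AT1G25230, a purple acid phosphatase family gene, had 1336.9, 1344.5 and 1694.0 in bottom flanks and 1295.2, 1579.3 and 1478.8 in top flanks. Under blue light it had 2894.0, 1583.2 and 1916.2 in shaded and 2644.7, 1840.4 and 1571.1 in lit flanks, and controls had 5352.4, 5202.4 and 2566.9. The blue light arrays were thus nearer to the gravity arrays than to control replicates 1 and 2. AT5G08340, an FMN adenylyltransferase of FAD synthesis, AT5G21060, of the homoserine dehydrogenase family, AT1G67280, a glyoxalase I, and AT3G29060, of the PHO1 phosphate exporter family, were 2.07-, 2.49-, 1.69- and 2.25-fold lower on average.

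The other members with 1 symbol had gaps between 0.40 and 0.78 and all overlapped. In translation they were AT1G79150, related to nucleolar ribosome assembly proteins, AT5G47970, a tRNA-dihydrouridine synthase, AT2G42710, of the L1 family, and AT4G32900, a peptidyl-tRNA hydrolase. The remaining ones, given no role here, were AT3G47310, AT1G18460, AT1G33270, AT3G10310, AT1G64260, AT3G43500, AT4G05470, AT5G55420, AT2G45930, AT1G22790, AT5G52390, AT1G75730, AT5G47360, AT1G55390, AT1G41870, AT3G59845, AT2G35080, AT2G15260, AT3G13000, AT5G17160, AT2G06410, AT4G10440, AT3G46240, AT2G28410, AT1G44085, AT1G60060, AT2G32640, AT3G24250, AT1G05205, AT2G20870, AT3G11560, AT1G12250, AT5G35150, AT3G24060, AT2G20280, AT5G64130, AT4G10300, AT5G05050, AT5G38520, AT5G16250 and AT2G33360. The 80 members without a name of their own had gaps of 0.41 to 1.299, and 16 of them had separated arrays.

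Differences that the rule did not set were tested in the members with limma over all 11371 probe sets. The rule still narrows them, since groups held to the same side of a gap tend to lie near each other. Between the bottom and the top flank 0 of the 179 members passed an adjusted p of 0.05, against 4 (0.0352%) of all tested probe sets. At an unadjusted p under 0.05 there were 2 members (1.12%) and 852 probe sets in all (7.49%). The median log2 difference, bottom minus top, was -0.06 over the members and -0.01 over all tested probe sets, with 104 members lower and 75 higher in the bottom flank. AT3G03960 had the smallest p among them, at a log2 difference of 1.12 (SE 0.45, adjusted p = 0.57, limma).

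Between the shaded and the lit flank 0 members passed, as did 0 (0%) of all tested probe sets. At an unadjusted p under 0.05 there were 0 members (0%) and 598 probe sets (5.26%). The median log2 difference, shaded minus lit, was -0.02 over the members.

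Between both blue light flanks and the control 0 members passed, against 25 (0.22%) of all. At an unadjusted p under 0.05 there were 4 members (2.23%) and 1172 probe sets (10.3%). The median log2 difference, blue light minus control, was 0.00 over the members, 89 above and 90 below 0. AT1G25230 came nearest, with a log2 difference of -1.04 (SE 0.24, adjusted p = 0.079, limma). It passed with array weights (adjusted p = 0.040) and without control replicate 3 (adjusted p = 0.014, log2 difference -1.39). Of the 3 groups above the gap, the lowest was the control in 63 members, the shaded flank in 58 and the lit flank in 58.

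To see how the rule's choices looked in arrays that did not make them, it was applied without all arrays of 1 replicate number. The chosen probe sets were then read in the 5 arrays left out. They were only partly members, so the 179 themselves were not tested in this way. Without replicate 1, 251 probe sets were chosen, of which 97 were among the 179. Their median log2 difference, gravity minus other groups, was -0.97 in the arrays used and -0.25 in the arrays left out, against 0.01 for the other tested probe sets. Both gravity arrays were the lowest of the 5 left out in 58 of the 251 (23.1%), and in 11.5% of the other probe sets.

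Without replicate 2, 192 were chosen, of which 88 were among the 179. Their median was -0.85 in the arrays used and -0.38 in those left out. Both gravity arrays were lowest in 31.8%, against 13.3% of the others. Without replicate 3, 181 were chosen, 86 of them among the 179. Their medians were -0.90 and -0.30, with both gravity arrays lowest in 30.9%, against 12.6%. The difference kept its sign in 69.3%, 79.2% and 70.7% of the chosen probe sets, against 49.3%, 50.7% and 48.5% of the others. In the arrays left out the median difference was therefore smaller than in the arrays that chose the probe sets, while most of those chosen still lay on the low side. These choices share arrays, and every array left out had also been used to choose the 179. They are therefore no replication of the members.

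**Figure D3:**
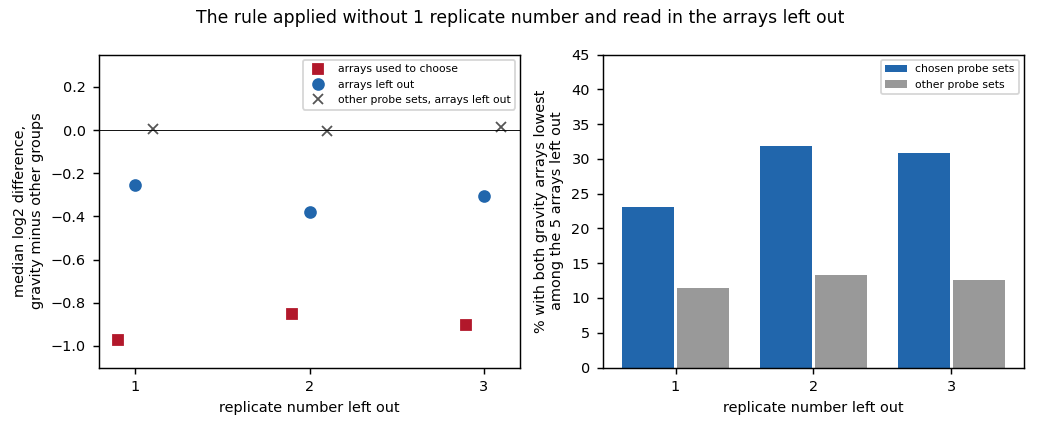
Left, median log2 difference (gravity minus other groups) of the probe sets chosen without 1 replicate number, in the arrays used (squares), in the arrays left out (circles) and for other probe sets in the arrays left out (crosses). Right, percent of probe sets whose 2 gravity arrays are the lowest of the 5 left out, 23.1% to 31.8% of those chosen and 11.5% to 13.3% of the others.

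All 3 of these choices had 23 members in common, and 9 of those carried the symbol of 1 gene. They were AT4G30010, AT3G03960, AT2G42490, AT1G04910, AT3G43320 and AT1G76590, named above for their separated arrays, with PGL34, AT3G18430 and AT4G22380. Leaving out 1 array at a time kept 135 to 159 of the 179 members, and 33 were kept in all 15 of these choices, 14 of them with 1 symbol. With group medians in place of means, 163 probe sets met the rule, of which 93 were among the 179. All these choices reused the values that chose the 179, so being kept in them is description only.

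Pathways around the members were described from gene lists, with members set apart because the rule had used this contrast. In the comparison of both gravity flanks with the mean of the other 3 groups, 238 of 11371 probe sets (2.09%) passed an adjusted p of 0.05. Of these, 115 (1.01%) passed as lower and 123 (1.08%) as higher (limma). The other 3 groups join blue light and control, so a gene high under blue light alone can pass as lower. RCA passed as lower at a log2 difference of -0.70 (adjusted p = 0.021, limma). Its log2 difference was 0.00 against the control alone and -1.05 against blue light alone. Of 63 cytosolic 40S ribosomal protein genes, components of the small ribosomal subunit, 32 matched a probe set and 25 were tested. Among the 23 that were not members, 3 were lower past the threshold, 0 were higher, and 21 had estimates below 0, as did 50.5% of all tested probe sets. Their median log2 difference was -0.24, against 0.00 over all tested probe sets. It was -0.41 against the control alone and -0.21 against blue light alone. The lists were drawn up with low values of AT4G25740, AT1G12000, AT4G14160, AT5G15950, AT2G42490 and AT1G25230 already known, so calls of these genes are not independent evidence.

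AT4G25740, another S10 gene, had 3134.9, 2040.3 and 2527.8 in bottom flanks and 2771.3, 2595.8 and 2434.7 in top flanks. Its level was 4601.0, 3430.0 and 4268.0 in shaded flanks, 4187.8, 3261.4 and 2872.8 in lit flanks and 4287.9, 4564.0 and 5240.6 in controls. It had a log2 difference of -0.65 (SE 0.12, adjusted p = 0.0085, limma), with 1 overlap, bottom replicate 1 above lit replicate 3. AT1G15930, of the S12 family, had -0.58 (SE 0.14, adjusted p = 0.043) and AT5G35530, of the S3 family, -0.50 (SE 0.12, adjusted p = 0.038).

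AT4G25740 kept its call without any 1 array, while AT1G15930 kept it in 3 of 15 such fits, those without bottom replicate 1, top replicate 3 or control replicate 1, with an adjusted p up to 0.11 in the others. AT5G35530 kept it in 4, those without shaded replicate 2, lit replicate 2, bottom replicate 1 or top replicate 3, with an adjusted p up to 0.094 in the others. The count of 3 lower genes was 1 in 10, 2 in 3 and 3 in 2 of those 15 fits. The S19 gene AT5G61170, not a member, had a log2 difference of -0.10 (SE 0.11), beside -0.74 in the member AT3G02080. Genes for the same ribosomal protein thus had unlike estimates, a difference that was not tested, and probes may also pick up transcripts of near-identical copies.

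**Figure D4:**
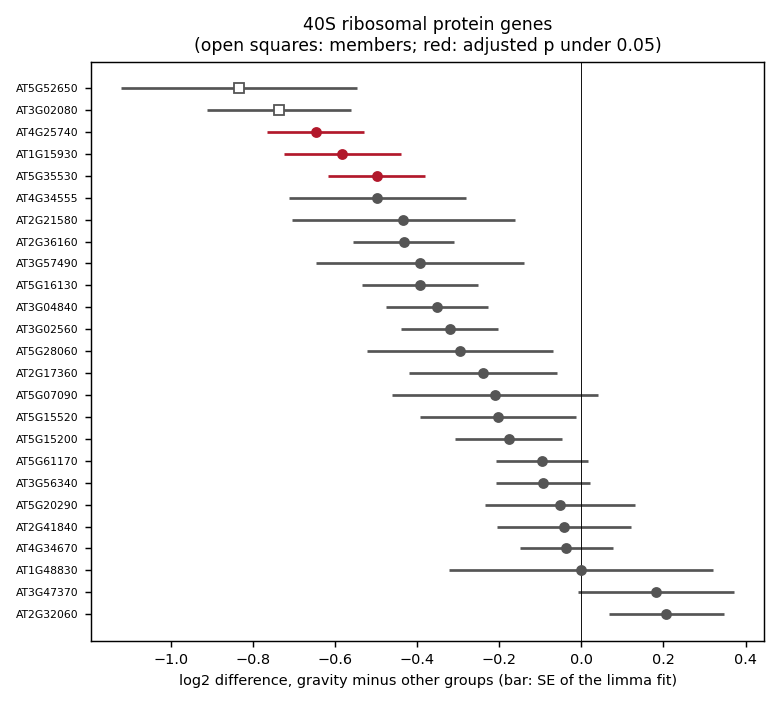
Log2 difference, both gravity flanks minus the mean of the other 3 groups, for the 25 tested 40S ribosomal protein genes, with bars of 1 SE of the limma fit. Open squares are the 2 members, red points the 3 other genes past an adjusted p of 0.05, and 21 of the 23 that are not members lie below 0.

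Of the glycolysis list, 6 of 24 genes were tested. Apart from TPI, 1 of 5 passed, AT1G12000, a beta subunit of the pyrophosphate-dependent phosphofructokinase. It had a log2 difference of -0.60 (SE 0.13, adjusted p = 0.021, limma), of -0.96 against the control alone and of -0.43 against blue light alone. Its signals were 1740.2, 2322.1 and 1976.1 in bottom flanks and 1529.9, 1638.4 and 1653.3 in top flanks. Shaded flanks had 2949.7, 1783.8 and 2964.6, lit flanks 2556.8, 2038.5 and 2397.4 and controls 3173.0, 4103.9 and 3235.0. Its adjusted p was 0.053 without bottom replicate 3 and 0.052 without top replicate 1. AT5G42740, a glucose-6-phosphate isomerase, had a log2 difference of -0.63 (adjusted p = 0.21). The alpha subunit genes AT1G20950 and AT1G76550 had log2 differences of -0.45 and -0.38 (adjusted p = 0.26 and 0.21), and GAPC2, a glyceraldehyde-3-phosphate dehydrogenase, 0.04. The 5 genes had a median of -0.45, of -0.75 against the control alone and of -0.24 against blue light alone.

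Of the coat of COPII vesicles, which carry proteins out of the endoplasmic reticulum, 13 of 21 genes were tested and 1 passed. AT4G14160, a SEC23/SEC24 family gene, had a log2 difference of -0.73 (SE 0.13, adjusted p = 0.0077, limma), while the list had a median of 0.01. The difference of AT4G14160 was -1.07 against the control alone and -0.55 against blue light alone. AT2G21630, of the same family, had -1.04 with an SE of 0.59 (adjusted p = 0.42, limma). Its top flank replicate 2 had 15.4, against 208.0 to 656.4 in the other gravity arrays. Of the 13 estimates, 6 were below 0 and 7 above.

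The 3 tested genes of polyamine synthesis, all for S-adenosylmethionine decarboxylase, had 0 past the threshold. AT5G15950 was at -0.52 (adjusted p = 0.057, limma), AT3G25570 at -0.11 and SAMDC at -0.09. Against the control alone AT5G15950 had -0.87, and against blue light alone -0.34. The other 2 tested copper amine oxidases, AT1G31710 and AT1G31690, had -0.27 and 0.23 (adjusted p = 0.73 and 0.49), against -1.04 in the member AT2G42490. Of the purple acid phosphatases only AT1G13750 was tested besides AT1G25230, at -0.03 (adjusted p = 0.97). No gene of the lists for gravity sensing and auxin transport or for touch and calcium was tested, since only 1 of each matched and both were too dim.

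The members were dimmer and more variable than other tested probe sets. Their median level over the 15 arrays was 8.85 on the log2 scale, against 9.32, and 41.3% lay within 0.5 of the lower limit, against 23.6%. Their median residual SD was 0.55, against 0.35. The 56 members at or above the median level of the tested probe sets had separated arrays in 15 cases (26.8%), with a median gap of 0.48 and a residual SD of 0.38. The 123 dimmer members had separated arrays in 9 cases (7.32%), with a gap of 0.57 and an SD of 0.72. The wider gaps therefore lay among the noisier probe sets. Separation was not counted over all tested probe sets of like brightness, so these shares of separated members are description only.

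The mean pairwise correlation of the members' residuals within groups was 0.0149, against 0.000405 over all tested probe sets. Positive and negative correlations cancel in this mean, so it does not show whether the members moved independently. Of the 88 members with locus names, 21 (23.9%) lay on Arabidopsis chromosome 2 and 23 (26.1%) on chromosome 3, against 15.1% and 20% of tested probe sets so named. Chromosomes 1, 4 and 5 held 19 (21.6%), 10 (11.4%) and 15 (17%), against 26.7%, 14.4% and 23.9%. These shares were not tested. A second probe set was present for 2 named members. That of AT2G31110 is given above. The second probe set of AT1G79150 was too dim to test (mean log2 signal 6.46). It too had the opposite sign to the member, with a log2 difference of 1.03.

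The mirror rule, both gravity flanks at least 0.4 above the other groups, found 146 probe sets. The same rule found 86 that were lower in both blue light flanks and 47 that were lower in both elongating flanks, the shaded and the bottom. These counts share arrays and were not tested against each other.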

How the data were processed

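The authors deposited 1 intensity per probe set and array, and the submitters' processing notes name GCOS 3.0, with no settings. Every array had the same trimmed mean (2% off each end). No pair of arrays shared more than 0.0877% of its values. Symbols came from the array's annotation, with 13513 probe sets listed under 1 gene, 503 under several and 8730 not listed, and no gene was named from several. Brassica cRNA on Arabidopsis probes gives low signal where sequences mismatch.

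Log2 was taken after setting 1 value at 0 to the smallest positive value, 0.4. Probe sets with a mean log2 signal at or above the median, 8.28, were tested, without 64 control probe sets. A model of 5 group means was fitted with limma 3.58.1 in R 4.3.3 (intensity trend, 10 residual degrees of freedom), with Benjamini-Hochberg adjustment. In simulated data of 11371 probe sets, bottom versus top recovered 35 of 100 changes of 1 log2 unit and 85 of 100 of 2 units. Shaded versus lit recovered 30 and 89, and blue light versus control 46 and 95. Gravity versus the other groups recovered 71 and 100. False calls numbered 4, 8, 3 and 7 in the same order. The changes were planted at random among all tested probe sets, so recovery in the noisier members was not measured. The members and lists were chosen with earlier results of these data known. Members with 1 symbol and widest gap (14), and any past the threshold elsewhere, were given by array; others shown by array were chosen after their values were seen. Of 212 listed genes 67 matched and 53 were tested; 2 symbols of another gene were dropped by chromosome. The number of arrays limits the precision.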

Additional observations from a re-analysis of the deposited data

How the results depend on the processing

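The 179 members became 296 with a gap of 0.3, 111 with 0.5, 647 with no lower limit on signal and 68 among the brightest 30% of probe sets. Leaving out 1 array gave 163 to 207, and leaving out 1 replicate number 181 to 251. In all 3 rescalings tried, quantile normalization, centred arrays and log2(signal + 16), 127 members were kept, while group medians in place of means gave 163, with 93 of the 179 among them. Members past the threshold stayed at 0 for bottom versus top and shaded versus lit in every alternative. For blue light versus control there was 1 with array weights and 0 to 1 on leaving out 1 array.

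Over all probe sets, the 4 calls for bottom versus top became 0 under quantile normalization, with centred arrays, with no filter and with no intensity trend, 1 with only the compared groups, and 0 to 7 without 1 array. The 25 for blue light versus control became 11 with no filter, 57 among the brightest 30%, 9 with no trend, 60 with array weights, 13 with only the groups compared, and 1 to 61 without 1 array, with 1, 3 and 61 without control replicates 1, 2 and 3. The 238 for gravity versus the other groups became 131 with no filter, 117 with no trend and 122 to 225 without 1 array, with 142 and 122 without bottom replicates 2 and 3, 152, 149 and 150 without top replicates 1 to 3 and 155 and 139 without control replicates 2 and 3; the 0 for shaded versus lit became 0 to 3. With the number as a replicate block the counts were 13 for bottom versus top, 1 for shaded versus lit and 11 for blue light versus control. The labels do not say that the numbers pair samples, and same-numbered arrays of 1 stimulation correlated at -0.018 to 0.15. The cause of these shifts was not tested. Signal near the lower limit restricts what can be said of the dimmer members.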
